A study of Rattus norvegicus with 6 samples.

Results

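Cytochrome P450 and epoxide hydrolase genes were described in the thoracic aorta of 2 inbred rat strains. The spontaneously hypertensive rat (SHR) develops high blood pressure with age, and the Wistar-Kyoto rat (WKY), from the same ancestral stock, keeps a normal pressure and serves as its control. Members were the probe sets, groups of short probes that report 1 transcript level, whose platform annotation names a single gene with a symbol of Cyp and a number, or Ephx1 or Ephx2. The rule took 76 of the 28879 probe sets on the array, which stand for 75 genes: 73 P450 genes and both epoxide hydrolases. Each strain had 3 arrays, from untreated animals aged 24 weeks, and the vessels had been freed of fat and connective tissue before freezing. The labels do not tie the arrays to separate animals, so the spread behind the p-values may be a technical one. Another 3 probe sets that name several genes, at least 1 of them a P450, were left out. Related P450 genes lie side by side in the genome and are alike in sequence, so a probe set may also read RNA of a close relative.

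P450 enzymes are haem proteins that insert oxygen into lipids, steroids, vitamins and foreign chemicals. In the vessel wall epoxygenases turn arachidonic acid into epoxyeicosatrienoic acids, which relax smooth muscle, and omega-hydroxylases turn it into a hydroxyeicosatetraenoic acid that constricts. Soluble epoxide hydrolase, encoded by Ephx2, removes the epoxides, and the gene has been studied as a candidate in SHR.

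Levels are log2 values as the authors deposited them. Array medians lay between 2.29 and 2.52, and no detection call exists, so a level near or under 2.52 is not shown to lie above background. The mean level was above every array median for 18 of the 76 members and was 4 or more for 7: Ephx1, Cyp4v3, Cyp20a1, Cyp51, Cyp2u1, Cyp4f5 and Cyp4f6. The nearest member above that limit was Cyp4f6, at 4.49, and the nearest below it was Cyp26b1, at 3.83. Members with a mean at or above the 25th percentile of all probe sets, 1.17, were tested, which took 48 and left out 28. The levels of the 28 had means from 0.63 to 1.12. The 4 smooth muscle markers measured, of 6 listed, had a mean level from 10.09 to 10.44 on the 6 arrays, far above the array medians.

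No P450 or epoxide hydrolase gene passed the comparison of SHR with WKY. In limma, with Benjamini-Hochberg adjustment over all 21659 tested probe sets, 0 of 48 members had an adjusted p under 0.05, beside 15 of all probe sets (0.0693%). The smallest limma adjusted p among members was 0.686. At an unadjusted p under 0.05 there were 4 members, against 5.55% of all tested probe sets: Ephx2 with the higher level in SHR (3.01% of all in that direction), and Ephx1, Cyp2d4 and Cyp11a1 with the lower (2.54%). The 3 SHR arrays lay entirely on one side of the 3 WKY arrays for 5 of 48 members, beside 12.1% of all tested probe sets. Those were Ephx2 and Cyp2a3 on the higher side (6.48% of all tested probe sets) and Ephx1, Cyp11a1 and Cyp26c1 on the lower (5.61%). The levels of Cyp2a3 (1.31 to 2.08), Cyp11a1 and Cyp26c1 were under every array median on each array. Over the 48 tested members the median difference, SHR minus WKY, was -0.01, with 21 above 0 and 27 below, and over all tested probe sets it was -0.01. Over the 7 members with a mean of 4 or more the median was 0.02, beside 0.05 over all probe sets at such levels, and it was -0.26 without WKY replicate 3.

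**Figure D1:**
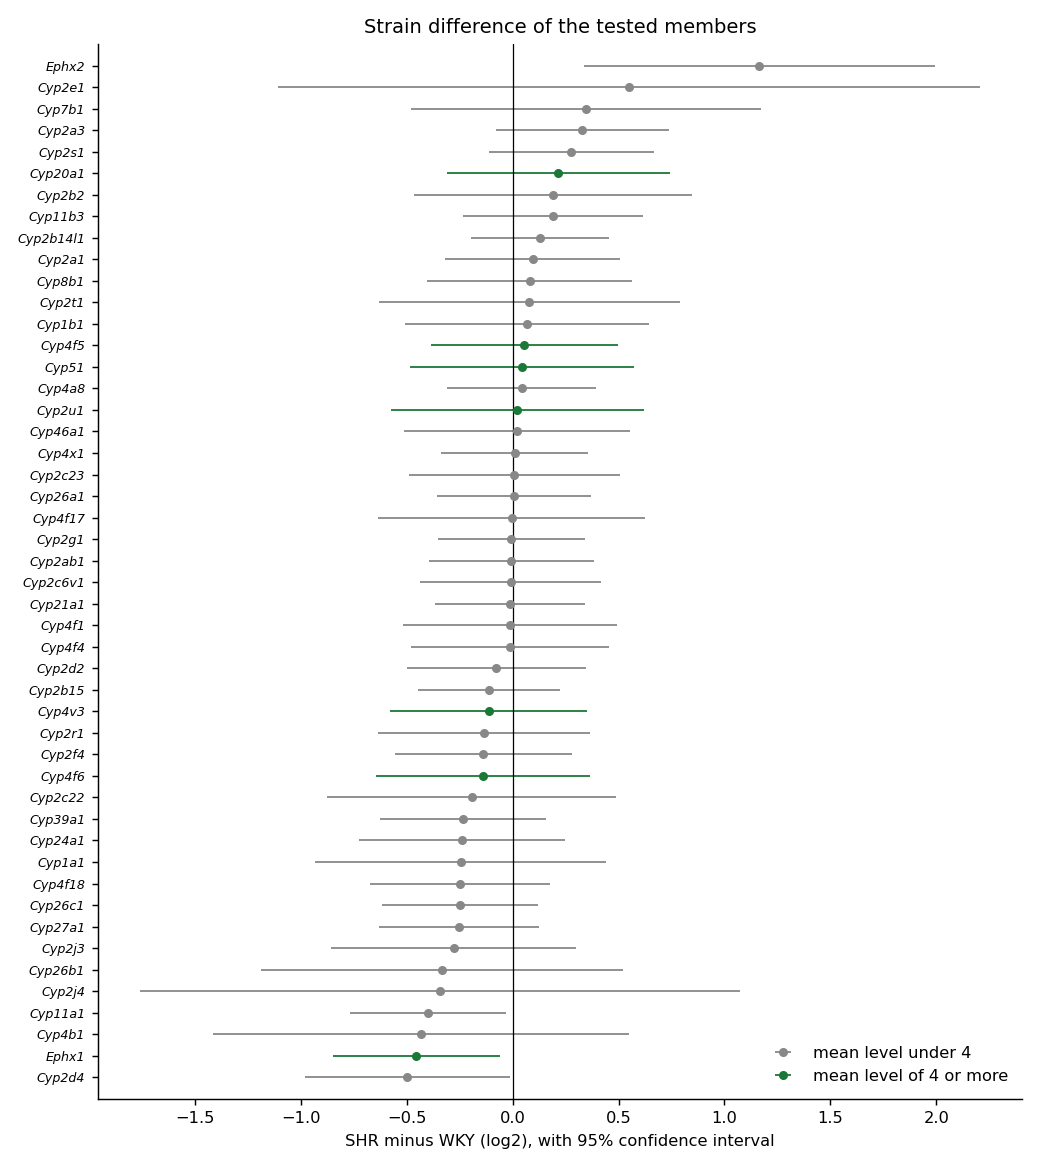
Difference between the strains (x axis, SHR minus WKY in log2 units) for the 48 tested members, ordered by difference; points are fitted differences, bars are 95% confidence intervals not adjusted for the number of tests, and green marks the 7 members with a mean level of 4 or more. The intervals of Ephx2, Cyp11a1, Ephx1 and Cyp2d4 leave out 0, and no member passed after adjustment.

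Of the epoxide hydrolases, Ephx1 encodes the microsomal enzyme, which detoxifies epoxides of foreign chemicals. Its levels were 6.63, 6.56 and 6.41 in SHR, replicates 1 to 3 in that order here and below, and 6.76, 7.23 and 6.98 in WKY. All SHR arrays lay under all WKY arrays, and the nearest were SHR replicate 1 and WKY replicate 1. The means were 6.53 ± 0.11 (SD, n = 3) and 6.99 ± 0.23, a difference of -0.45 ± 0.17 (SE) that did not pass (limma adjusted p = 0.860). The difference kept its sign in all 16 fits tried, between -0.57 and -0.34.

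Ephx2 lay at 3.65, 2.77 and 2.30 in SHR and at 2.14, 1.45 and 1.63 in WKY. The strains did not overlap, but the 3 WKY levels were under every array median, and SHR replicate 3 lay within the range of those medians. The difference between measured levels was 1.16 ± 0.35 (SE; 95% confidence interval 0.34 to 1.99), with a limma adjusted p of 0.686. It is no estimate of a fold in RNA. Within each strain the order of the arrays was that of the white adipocyte markers. Their mean was 7.58, 5.60 and 4.02 on the SHR arrays and 7.36, 5.91 and 5.93 on the WKY arrays. On WKY replicates 2 and 3 those means were close, and both Ephx2 levels were under every array median. The marker lists of macrophages, brown adipocytes and hepatocytes had the same order in both strains. Those of endothelium and fibroblasts had it in SHR only. SHR replicate 3 had the lowest adipocyte mean of all 6 arrays, 4.02, and an Ephx2 level of 2.30, within the range of the array medians. More adipocytes cannot be told apart from more RNA per cell here, and the part of these cells in the levels was not tested. With that mean added to the fit as a covariate, which was decided after seeing the data, the difference was 1.42 ± 0.16 (limma adjusted p = 0.0545), and without SHR replicate 1 it was 0.79 ± 0.27 (limma adjusted p = 0.642).

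**Figure D2:**
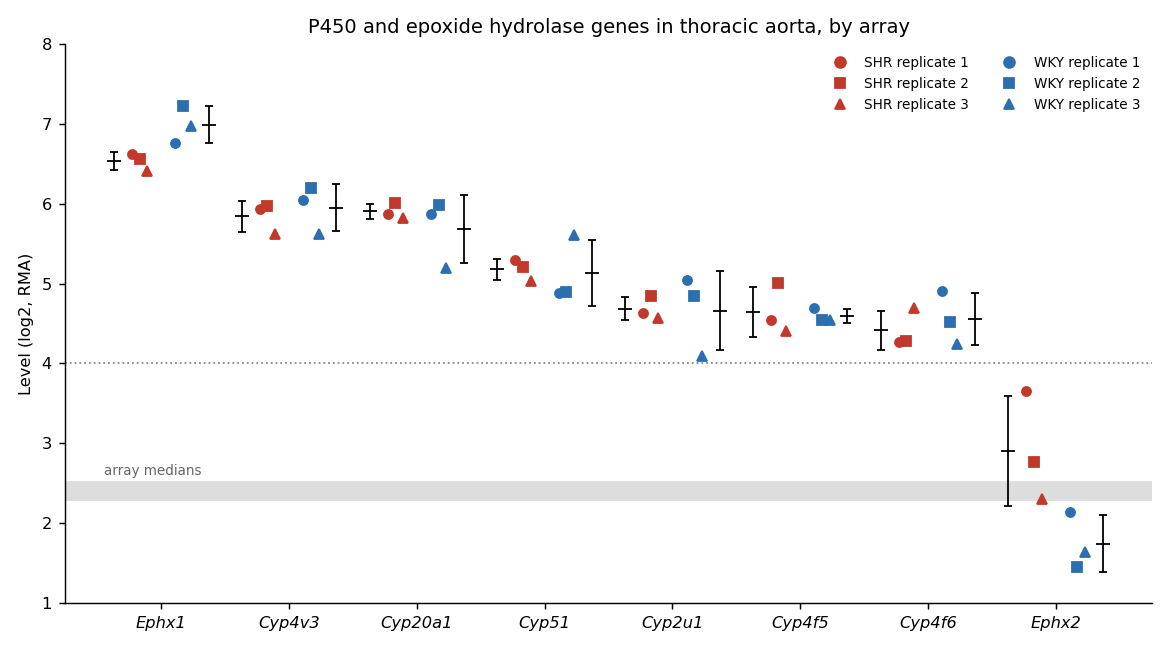
Log2 level (y axis) of the 7 members with a mean of 4 or more (dotted line) and of Ephx2, on each SHR (red) and WKY (blue) array; marker shapes give the replicate, black bars are means ± SD of 3 arrays, and the grey band spans the array medians, 2.29 to 2.52. SHR lies under WKY without overlap for Ephx1 and above it for Ephx2, and the strains overlap for the other 6 genes.

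Among family 4, the fatty acid omega-hydroxylases, 10 of 12 probe sets were tested, 0 passed, and 3 were above 0 and 7 below. Cyp4v3, a fatty acid hydroxylase, lay at 5.94, 5.97 and 5.62 in SHR and at 6.04, 6.20 and 5.62 in WKY. The third replicate was the lowest in both strains and the strains overlapped (-0.11, 95% interval -0.58 to 0.35). Cyp4f5 lay at 4.54, 5.0 and 4.40 in SHR and 4.69, 4.54 and 4.55 in WKY, with SHR on both sides of WKY (0.06, interval -0.39 to 0.50). Cyp4f6, of the same subfamily, lay at 4.27, 4.28 and 4.70 in SHR and 4.90, 4.52 and 4.25 in WKY (-0.14, interval -0.65 to 0.37). The intervals of Cyp4v3 and Cyp4f6 include a difference as far below 0 as that of Ephx1, -0.45, and that of Cyp4f5 does not. The other 6 tested members, Cyp4b1 apart, differed by -0.25 (Cyp4f18) to 0.04 (Cyp4a8). Cyp4a1, a hydroxylase induced in liver by fibrates, and Cyp4f40 were too dim to be tested.

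Of families 2 and 3, which hold most drug-oxidising forms and the epoxygenases, and leaving Cyp2r1 to the vitamin D enzymes, 19 of 40 probe sets were tested and 0 passed, with 9 above 0 and 10 below. Cyp2u1, a long-chain fatty acid hydroxylase, was the single one with a mean of 4 or more. It lay at 4.63, 4.85 and 4.57 in SHR and at 5.04, 4.84 and 4.10 in WKY. WKY held both the highest and the lowest array, and the difference was 0.02 (interval -0.57 to 0.62), or -0.26 without WKY replicate 3. Cyp2d4, a drug-oxidising form also known from brain, lay at 2.93, 2.61 and 2.30 in SHR and 3.27, 3.17 and 2.88 in WKY. SHR replicate 1 reached above WKY replicate 3, so the strains overlapped (-0.50 ± 0.21, SE; limma adjusted p = 0.889). Its difference was -0.77 on the 4 arrays other than SHR replicate 1 and WKY replicate 3, a choice made after seeing the data that drops its highest SHR and lowest WKY level (limma adjusted p = 0.166). Cyp2c23, an arachidonic acid epoxygenase of rat kidney, was near the limit of testing, at a mean of 1.25, with a difference of 0.01. The liver forms Cyp2c11 and Cyp3a2 had means of 1.03 and 0.75 and were not tested. The 5 members of family 3 all had means under 1.17. The hepatocyte markers, 6 of 7 measured, had list means from 2.07 to 2.90 on the 6 arrays. Of them 4 had a mean under every array median, whereas Alb, which encodes albumin, lay between 4.44 and 8.25.

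Cyp2e1, Cyp2j4 and Cyp4b1, with Ephx2, were the tested members whose level ranged by more than 1.5 log2 units over the 6 arrays, 4 of 48 beside 7.83% of all tested probe sets. Their means are under 4, and they were singled out after their values were seen. Cyp2e1 oxidises ethanol and other small molecules, Cyp2j4 is an epoxygenase of arachidonic acid, and Cyp4b1 hydroxylates fatty acids and activates some toxins. The 250 bases before the RefSeq gene start are shown for these 3 genes, which were highest on replicate 1 in both strains, and for Ephx1, the bright member whose strains did not overlap. They are from assembly GRCr8 of RefSeq, whose promoter table holds 56 of the 75 genes, Ephx2 not among them, and are in lower case with motif matches in capitals.
Ephx1, chr13:95275853-95276102, minus strand: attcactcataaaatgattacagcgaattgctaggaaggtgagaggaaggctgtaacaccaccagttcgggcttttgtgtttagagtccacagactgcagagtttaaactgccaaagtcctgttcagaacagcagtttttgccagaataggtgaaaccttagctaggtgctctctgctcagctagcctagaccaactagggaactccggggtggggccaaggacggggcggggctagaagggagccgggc
Cyp2e1, chr1:205269717-205269966, plus strand: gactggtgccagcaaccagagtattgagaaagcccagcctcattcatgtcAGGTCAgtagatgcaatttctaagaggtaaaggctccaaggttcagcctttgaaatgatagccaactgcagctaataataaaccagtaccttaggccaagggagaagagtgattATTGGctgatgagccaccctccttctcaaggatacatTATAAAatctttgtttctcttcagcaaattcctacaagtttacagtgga
Cyp2j4, chr5:116323043-116323292, minus strand: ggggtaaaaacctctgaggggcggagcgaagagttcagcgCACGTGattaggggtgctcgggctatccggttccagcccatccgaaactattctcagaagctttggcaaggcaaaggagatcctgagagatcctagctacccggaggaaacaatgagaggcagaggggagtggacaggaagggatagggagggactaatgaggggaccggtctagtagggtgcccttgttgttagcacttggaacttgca
Cyp4b1, chr5:134393117-134393366, minus strand: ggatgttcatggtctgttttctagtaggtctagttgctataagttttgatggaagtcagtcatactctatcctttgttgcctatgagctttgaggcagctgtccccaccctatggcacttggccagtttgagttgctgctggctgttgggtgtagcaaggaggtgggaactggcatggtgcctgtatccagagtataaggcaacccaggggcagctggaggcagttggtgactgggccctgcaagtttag
The motifs searched, on both strands, were the TATA box (TATAAA), the CCAAT box, the core element of the AhR-ARNT dimer (GCGTG), the nuclear receptor half-site (AGGTCA) and the palindromic E-box (CACGTG), none of which overlapped another match here. Cyp2e1 held a match to the TATA box, the CCAAT box and the half-site, which 13.1%, 34.3% and 13.7% of 27457 windows of the same length hold. Cyp2j4 held the E-box, found in 5.80% of windows. Ephx1 and Cyp4b1 held no match in these letters, and the AhR-ARNT core, present in 27.2% of windows, was in none of the 4.

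Cyp2e1 lay at 4.51, 1.94 and 2.38 in SHR and at 3.38, 1.61 and 2.19 in WKY. Replicate 1 was the highest array of each strain, and on the other 4 arrays the level was within the range of the array medians (SHR replicate 3) or under it. The difference was 0.55 ± 0.71 (SE), and -0.23 without SHR replicate 1. Cyp2j4 lay at 4.80, 3.03 and 2.70 in SHR and at 4.34, 4.30 and 2.91 in WKY. Replicate 1 was again the highest, WKY replicate 2 lay close to WKY replicate 1, and the difference was -0.34 ± 0.61. Cyp4b1 lay at 3.33, 2.25 and 1.87 in SHR and at 3.46, 2.93 and 2.35 in WKY, a difference of -0.43 ± 0.42. Leaving out SHR replicate 1 gave -0.86, and leaving out SHR replicate 3 gave -0.13. SHR replicate 1 and WKY replicate 3 held its highest SHR and its lowest WKY level. On the 4 arrays without them, a choice made after seeing the data, the difference was -1.14 (limma adjusted p = 0.159). Both SHR levels left there, 2.25 and 1.87, were under every array median.

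All 8 white adipocyte markers were highest on replicate 1 in both strains, as were 6 of 48 tested members and 13.6% of all tested probe sets. With the adipocyte mean as a covariate, chosen after the values were seen, Cyp2e1 differed by 1.02 ± 0.44, Cyp2j4 by 0.05 ± 0.39 and Cyp4b1 by -0.14 ± 0.22, with limma adjusted p of 0.729, 0.982 and 0.890. In that fit 0 of 48 members passed, beside 0.0693% of all, and 3 had an unadjusted p under 0.05, beside 6.8%. On the 4 arrays other than SHR replicate 1 and WKY replicate 3, Cyp2j4 was lower in SHR by 1.46 log2 units (SHR minus WKY -1.46 ± 0.16) and passed at a limma adjusted p of 0.0499, as did 0.531% of all tested probe sets. The arrays left out, a choice made after seeing the data, held its highest SHR and its lowest WKY level. Of the settings tried, that is the only one in which a member passed. The adipocyte means of these 4 arrays were 5.60 and 4.02 in SHR and 7.36 and 5.91 in WKY, lower in SHR without overlap. The lists of endothelium, macrophages, fibroblasts, brown adipocytes and hepatocytes were highest on replicate 1 in both strains as well. The smooth muscle list was lowest on replicate 1 (10.09 in SHR and 10.28 in WKY). The mean of 5 endothelial markers, of 7 listed, was 6.16, 4.79 and 4.01 in SHR and 6.04, 5.35 and 5.33 in WKY, and that of 7 macrophage markers was 6.11, 4.59 and 3.70 and 5.42, 4.47 and 4.60. The part of any of these cell types in the levels of these genes was not tested.

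**Figure D3:**
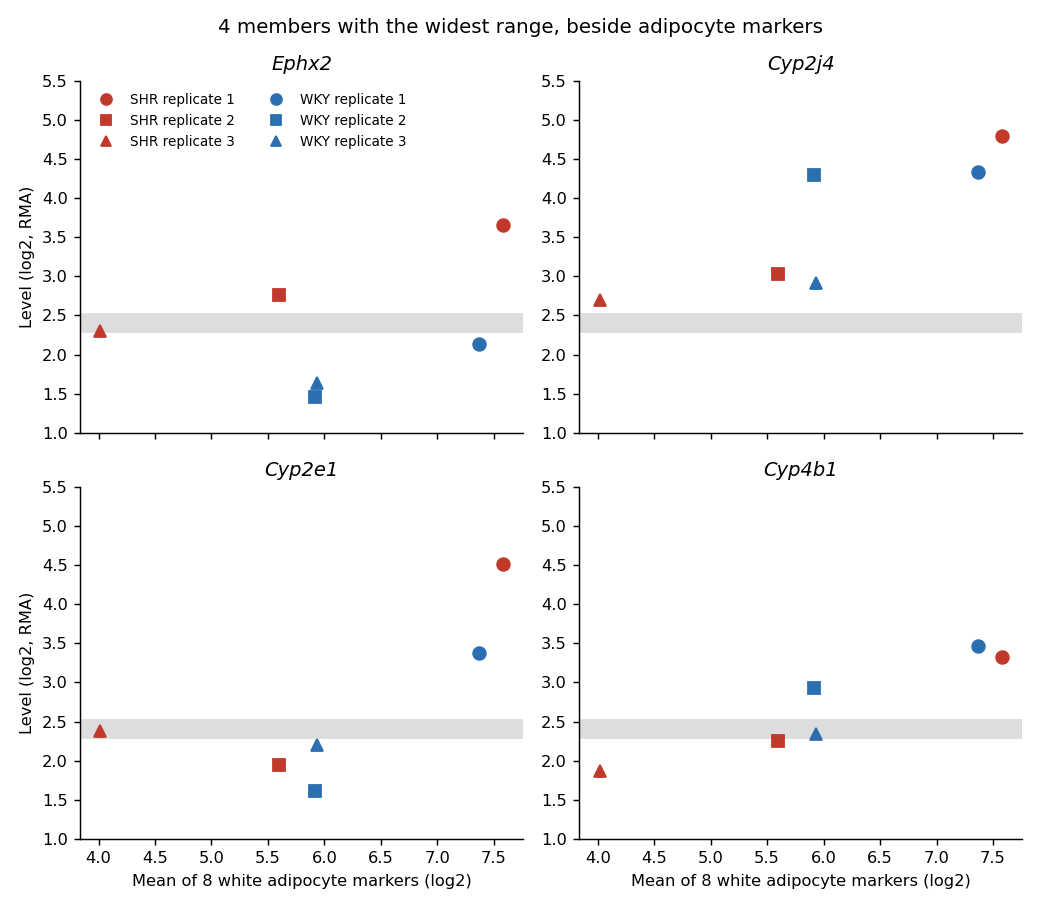
Log2 level of Ephx2, Cyp2j4, Cyp2e1 and Cyp4b1 (y axes) on each SHR (red) and WKY (blue) array against the mean log2 level of 8 white adipocyte markers on that array (x axes); the grey band spans the array medians. Replicate 1 of each strain lies at the right, at 7.58 and 7.36, and each of the 4 genes has its highest level of the strain there.

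Of the sterol and bile acid enzymes, 6 of 7 were tested and 0 passed. Cyp51, the lanosterol demethylase of cholesterol synthesis, lay at 5.29, 5.20 and 5.03 in SHR and at 4.88, 4.90 and 5.61 in WKY. WKY replicate 3 stood above and the other WKY arrays below all SHR arrays, and the difference was 0.05 (interval -0.48 to 0.57), or 0.29 without WKY replicate 3 (limma adjusted p = 0.774). Cyp27a1, a mitochondrial sterol hydroxylase, differed by -0.25 (interval -0.63 to 0.13). Cyp7b1, an oxysterol hydroxylase, had 1 level above the array medians, 2.67 on SHR replicate 1, and 1.19 to 1.88 on the other arrays. Of 20 other genes of cholesterol synthesis and its control, 15 were measured and 0 passed, with a median difference of -0.14 beside -0.01 over all tested probe sets. Lss, the lanosterol synthase that acts before Cyp51, lay at 4.13, 4.04 and 3.92 in SHR and 4.91, 4.36 and 4.44 in WKY (-0.54 ± 0.19, SE; limma adjusted p = 0.798). It was the single gene of the 15 tested with an unadjusted p under 0.05, beside 5.55% of all tested probe sets. Its strains did not overlap, as in 12.1% of all tested probe sets.

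Steroid hormone enzymes were dim, with means from 0.74 to 2.14, and 3 of 7 were tested. Cyp11a1, the enzyme that cleaves the side chain of cholesterol, lay at 1.40, 1.69 and 1.75 in SHR and 1.96, 1.94 and 2.13 in WKY. The strains did not overlap, at levels under every array median (-0.40 ± 0.16, SE; limma adjusted p = 0.882). Cyp11b2, the aldosterone synthase, and Cyp17a1 were not tested, at means of 1.08 and 0.95. Of 6 adrenal cortex markers 5 were measured and 3 had a mean under every array median, the cholesterol carrier Star among them (1.69 to 2.73). Mc2r, at 2.59 to 5.09 with a mean of 3.54, and Fdx1, with a mean of 3.69, had means above every array median. Cyp1b1 and Cyp1a1, targets of the aryl hydrocarbon receptor, had means of 2.07 and 1.40 and differed by 0.07 and -0.25. The vitamin D hydroxylases Cyp24a1 and Cyp2r1 had means of 1.46 and 1.36 and differed by -0.24 and -0.14.

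The retinoic acid hydroxylases were all tested. Cyp26b1 lay at 3.69, 3.76 and 3.55 in SHR and at 3.43, 3.65 and 4.91 in WKY. WKY replicate 3 stood apart from the other 5 arrays, and the difference was -0.33 with it and 0.12 without it. Cyp26a1 differed by 0.01, and Cyp26c1 by -0.25 at levels from 1.69 to 2.20. Of 13 other retinoid genes 11 were tested and 0 passed, with a median difference of -0.22 beside -0.01 over all tested probe sets. The mean of the 12 measured was 3.88, 3.37 and 3.02 in SHR and 3.82, 3.56 and 3.39 in WKY. It was highest on replicate 1 in both strains. Rdh10, a retinol dehydrogenase that supplies the precursor of retinoic acid, lay at 4.81, 5.21 and 4.76 in SHR and 5.47, 5.62 and 5.32 in WKY. Its strains did not overlap (-0.54 ± 0.18 SE, limma adjusted p = 0.758), as in 12.1% of all tested probe sets. Rdh10 alone of the 11 tested had an unadjusted p under 0.05, beside 5.55% of all.

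Cyp20a1, a P450 with no settled substrate, lay at 5.87, 6.01 and 5.83 in SHR and 5.87, 5.99 and 5.20 in WKY. Its low array was WKY replicate 3, and the difference of 0.22 (interval -0.31 to 0.74) was -0.03 without it. That array had the narrowest spread of values of the 6 (SD 2.12 over all probe sets, 2.22 to 2.27 on the others). Of the 69 members with a mean under 4, 32 had their highest level on it (46.4%, beside 37.5% of all such probe sets). Of the 7 members with a mean of 4 or more, 3 had their lowest level there (42.9%, beside 49.5%).

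**Figure D4:**
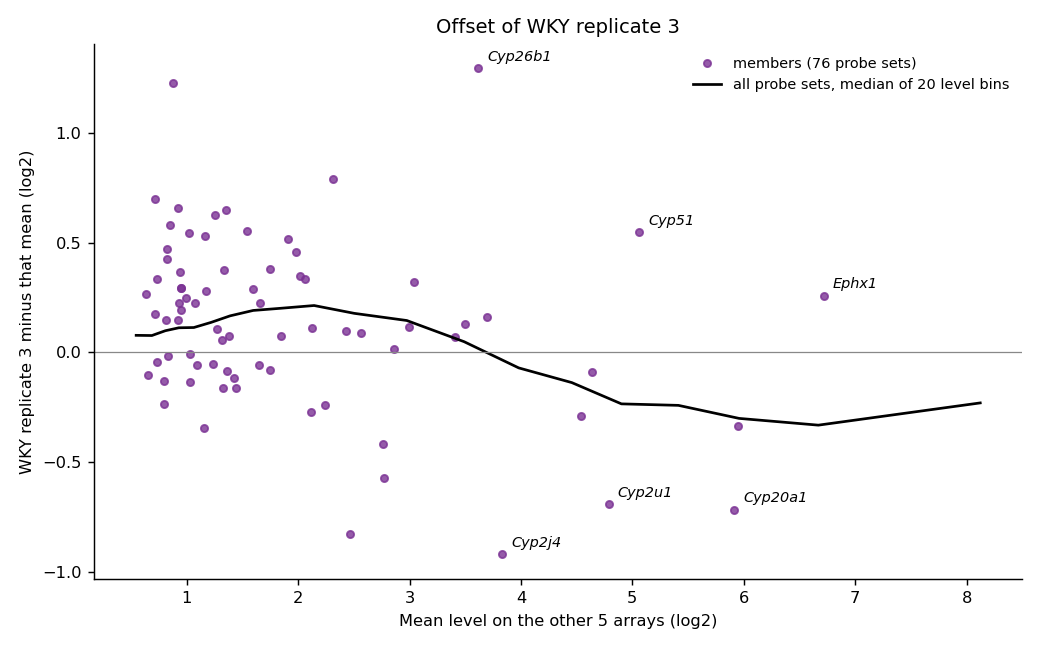
Level on WKY replicate 3 minus the mean of the other 5 arrays (y axis, log2) against that mean (x axis, log2) for the 76 members (points), with the median over all probe sets in 20 bins of level (line). The median offset was 0.15 for members with a mean under 4 and -0.29 for those with a mean of 4 or more, beside 0.12 and -0.22 over all probe sets; Cyp26b1 and Cyp51 lie above the line, and Cyp20a1, Cyp2u1 and Cyp2j4 below it.

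The other genes of the pathway were taken from lists of names. Of 18 partners of P450 enzymes, which pass electrons, handle haem or carry cholesterol, 15 were tested, 0 passed and 0 had an unadjusted p under 0.05 (median difference -0.01). Over all tested probe sets 5.55% had such a p, and the median difference was -0.01. Por, the reductase that serves the microsomal P450 enzymes, lay at 5.49 ± 0.26 (SD, n = 3) in SHR and 5.76 ± 0.13 in WKY, and Blvra, a biliverdin reductase, at 5.29 ± 0.19 and 5.49 ± 0.16. Of 20 regulators 18 were tested, 0 passed and 0 had an unadjusted p under 0.05 (median -0.09). The smallest p were those of Rarg, a retinoic acid receptor, which differed by -0.25, and of Hnf4a, a hepatic nuclear receptor whose strain means, 1.79 and 1.45, were under the array medians, by 0.34. Of 19 arachidonic acid and oxylipin genes 18 were tested and 0 passed, with 10 above 0 and 8 below (median 0.10). At an unadjusted p under 0.05 there was 1 with the higher level in SHR, Pla2g5, and 1 with the lower, Ptgs2. Over all tested probe sets the shares were 3.01% and 2.54%. Pla2g5, a secreted phospholipase that releases arachidonic acid, lay at 4.90, 4.83 and 5.27 in SHR and 4.75, 4.47 and 4.09 in WKY. Its strains did not overlap (0.56 ± 0.22 SE, limma adjusted p = 0.876), as in 12.1% of all tested probe sets. Ptgs2, the inducible cyclooxygenase, lay at 7.23, 7.70 and 8.89 in SHR and 8.49, 9.99 and 9.07 in WKY, with overlap (-1.25 ± 0.50, SE; limma adjusted p = 0.882). Ephx3 and Ephx4, relatives of the epoxide hydrolases outside the rule, differed by -0.05 and -0.19 at means of 1.22 and 1.42.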

How the data were processed

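RNA of thoracic aorta was measured on 6 Affymetrix Rat Gene 2.0 ST arrays. The deposited log2 values are the authors' RMA output from Affymetrix Expression Console, version 1.2.1 per the submitters' processing notes. The summarization level, annotation version and genome build were not given in the labels. RMA corrects background, quantile-normalizes and summarizes the probes of a set. The number of arrays limits the precision.

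Probe sets with a mean at or above the 25th percentile (1.17) entered a two-sided limma fit (version 3.58.1, R 4.3.3; lmFit, eBayes) with strain as the only term, with Benjamini-Hochberg adjustment over all 21659. The fit was tested on simulated data. Entrez identifiers matched 74 of 75 member genes to RefSeq names of GRCr8. Both probe sets of Cyp2ac1 hold identical values and were counted as they stand, untested. A list gene with several probe sets stood by its probe set of highest mean. Named were members with a mean of 4 or more or an unadjusted p under 0.05, both epoxide hydrolases, and up to 4 genes a list; Cyp2a3, Cyp26c1 and other members named by role were chosen after their values were seen. Members and lists were chosen with earlier results of these data known, Ephx2 among them. Alternatives were a replicate block, other filters, normalizations, variance models, weights and thresholds, leaving out arrays, and an adipocyte covariate. Replicate numbers were not taken to pair the arrays: deviations from the strain means correlated at 0.35, -0.08 and 0.23 for numbers 1 to 3.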

Additional observations from a re-analysis of the deposited data

How the results depend on the processing

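With all members considered, 0 passed in each alternative (adjusted p under 0.10 included) except on the 4 arrays left without SHR replicate 1 and WKY replicate 3, where 1 did (Cyp2j4, at -1.46). Members at an unadjusted p under 0.05 numbered 4 of 48 in the main analysis (5.55% of all tested probe sets), 2 of 20 with the filter at the 50th percentile (6.34%), 1 with each array centred on its median (4.68%), 8 with array weights (10.4%), 6 on those 4 arrays (12.1%) and 1 to 4 when single arrays were left out (3.56% to 6.8%). Passing probe sets over the whole array numbered 15, 65 with array weights, 115 on those 4 arrays, 3 with the replicate number as a block and 2 to 5 when single arrays were left out, in fits with fewer arrays. The replicate block left the differences as they were, with 0 members passing and 5 at an unadjusted p under 0.05 (6.51% of all tested probe sets), and Ephx2 had a limma adjusted p of 0.279 in it.

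The median of the 7 members with a mean of 4 or more, 0.02, turned to -0.012 with a further quantile normalization, -0.16 with array weights, -0.22 on those 4 arrays, -0.11 over members with a mean of 3 or more and -0.033 over those of 5 or more, and ran from -0.26 to 0.078 when single arrays were left out. With array weights Cyp26b1 was at 0.058 and Cyp2u1 at -0.16, and with a further quantile normalization Cyp51 was at -0.012. On those 4 arrays Cyp20a1 was at -0.014, Cyp26b1 at 0.11, Cyp2e1 at -0.33 and Cyp2u1 at -0.23, and with the adipocyte covariate Cyp2j4 was at 0.048. When single arrays were left out the ranges were -0.028 to 0.37 (Cyp20a1), -0.62 to 0.12 (Cyp26b1), -0.23 to 1.05 (Cyp2e1), -0.99 to 0.062 (Cyp2j4), -0.26 to 0.21 (Cyp2u1), -0.12 to 0.18 (Cyp4f5), -0.29 to 0.033 (Cyp4f6), -0.28 to 0.011 (Cyp4v3) and -0.077 to 0.29 (Cyp51). The cause of these turns was not tested. Ephx1, Ephx2, Cyp2d4, Cyp4b1 and Cyp11a1 kept their sign in every fit that tested them. Members near the array medians have no detection call, which limits any statement on them.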
